A study of Homo sapiens with 12 samples.

Results

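The ZNF zinc finger genes of chromosome 19 were examined for listed sites of N4-acetylcytidine (ac4C), an acetylated cytidine in RNA. A gene belonged to the group when its name in the deposited lists was ZNF followed by a digit and it lay on chromosome 19. The rule was met by 129 genes of the 10240 with a site in any list, and all 129 are protein-coding in RefSeq. RefSeq holds 250 protein-coding ZNF genes on chromosome 19. Of these, 130 had a site, since the gene now called ZNF875 is listed under its older name HKR1 and fell outside the rule. That is 52% of them, against 62.2% of the 267 ZNF genes of other chromosomes and 49.4% of all protein-coding genes.

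Most ZNF genes of chromosome 19 encode transcription factors with an array of C2H2 zinc fingers, small DNA-binding folds held by zinc. Many also carry a KRAB domain, which recruits the corepressor TRIM28 and, through it, enzymes that place repressive histone marks. The genes stand in tandem clusters that grew by duplication, and many of their proteins bind transposable elements. Near-identical copies can share sequencing reads, so a site of 1 copy may be credited to its neighbour. NAT10 is the acetyltransferase that makes ac4C.

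The assay was ac4C-RIP-seq, and the cells were HK-2, an immortalised human proximal tubule line. Fragmented RNA is pulled down with an antibody against ac4C (IP) and sequenced beside the starting RNA (input). The 12 samples form 3 pairs of IP and input labelled NAT10 knockout (KO) and 3 pairs labelled wild-type control (WT), and each pair gave 1 list of sites. The series text calls the first genotype a knockdown, and the sources used here do not say whether it is 1 clone, nor that replicates came from separate cultures, so p-values cover the spread between these samples alone, and that spread may be technical.

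The KO lists held 13818, 17872 and 19136 sites and the WT lists 17541, 17107 and 15289. Each site has the authors' fold, the enrichment of IP over input, and their score, 10 times the negative log10 of the p-value. No read counts or library totals were used, so the depth behind a site is unknown, as is the level of each transcript. More RNA of a gene and more acetylation per molecule cannot be told apart from the presence of a site. The targeted gene, NAT10, held 2, 5 and 9 sites in the KO lists and 11, 11 and 8 in the WT lists, and these numbers overlap. The authors' false discovery rate was over 50% for 70.4%, 79.5% and 44.4% of chromosome 19 ZNF sites in KO replicates 1, 2 and 3, against 96.2%, 93.6% and 96.4% in WT replicates 1, 2 and 3. Of 15 proximal tubule markers, 11 had a site in some list, and SLC34A1, SLC5A2, AQP1 and PAX2 had none. By list, 8, 8 and 9 of them had a site in KO and 5, 5 and 6 in WT, and 3 had one in all 6 lists. For other cell types of kidney and blood, 4 of 19 markers had a site, namely ATP6V1B1, PDGFRB, ACTA2 and LYZ. PDGFRB and LYZ had one in all 6 lists. Over all protein-coding genes, 49.4% had a site in some list.

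The first comparison asked how many chromosome 19 ZNF genes carried a listed site in each genotype. They numbered 53, 85 and 82 in the KO lists and 72, 68 and 60 in the WT lists. KO replicate 1 lay below every WT list and the other KO lists lay above them all, so the genotypes overlap. The means were 73.3 ± 17.7 genes in KO and 66.7 ± 6.11 in WT lists (SD, n = 3 each; two-sided exact permutation p = 0.6, adjusted p = 0.8 over the 10 values compared in this way). The difference of 6.67 genes was 16.8 without KO replicate 1, 0.833 without KO replicate 2, 2.33 without KO replicate 3 and 3.33 without WT replicate 3. A comparison of 3 lists with 3 cannot give a p below 0.1, so no value compared between the genotypes could pass 0.05.

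The sites of these genes numbered 71, 117 and 117 in the KO lists and 104, 94 and 84 in the WT lists (exact permutation p = 0.8). The family's share of all sites was 0.593% ± 0.0721 in KO and 0.564% ± 0.0251 in WT (SD over 3 lists each; exact permutation p = 0.6). A gene with a site carried on average 1.38 ± 0.0438 sites in KO and 1.41 ± 0.0320 in WT lists (SD, n = 3 each; exact permutation p = 0.4). A gene had 1 site in 303 of the 420 cases in which it had any site in a list, and 4 or 5 sites in 13 cases. With every listed site, the genotypes overlapped in the number of genes and of sites. With sites of a false discovery rate of at most 50% alone, the genes with a site numbered 17, 18 and 50 in KO and 4, 6 and 3 in WT lists, without overlap, and the difference was 24 genes (exact permutation p = 0.1). Most WT sites lay above that rate, in this family and over all genes. Of all sites, 62.4%, 68.05% and 43.25% lay above it in KO and 92.8%, 92.1% and 91.9% in WT lists. Of the family's 54 genes with a site under this filter, 25.9% were listed in KO alone, against 40.7% of all genes.

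**Figure D1:**
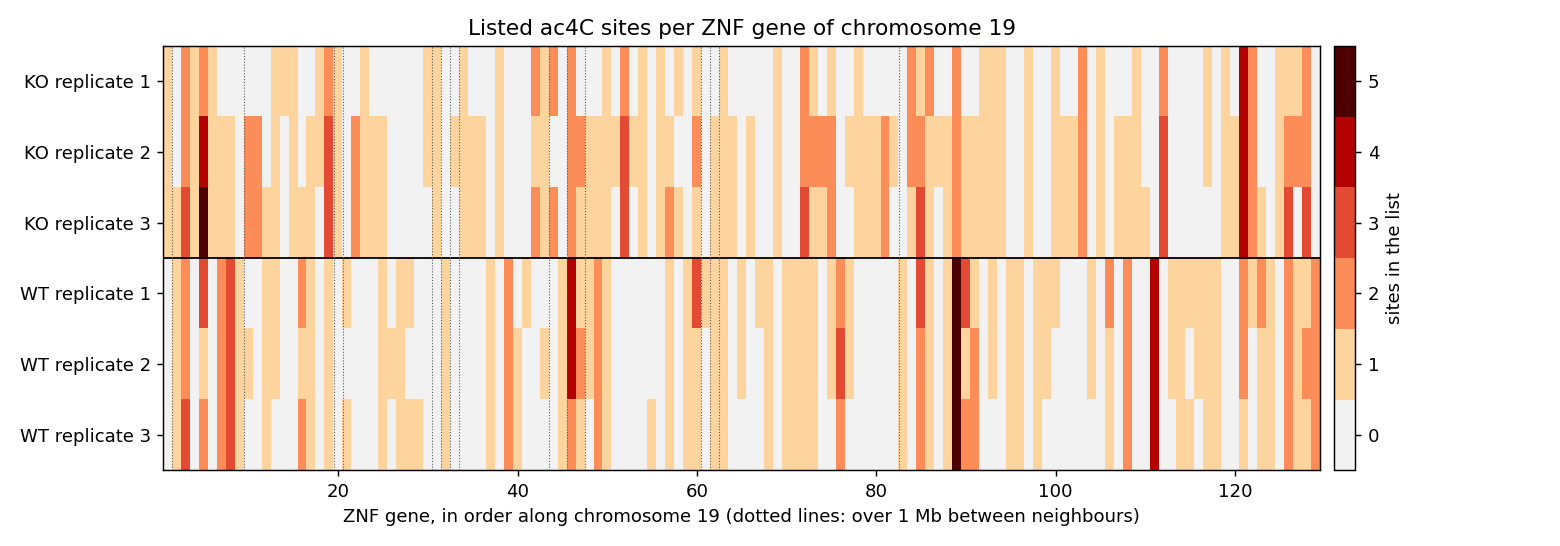
Number of listed ac4C sites of each of the 129 ZNF genes (columns, in their order along chromosome 19) in the KO and WT lists (rows); colour gives the number of sites, from 0 to 5. Columns filled in the upper 3 rows alone or the lower 3 rows alone outnumber those filled in all 6 rows, which are 15.

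The next comparison asked which of these genes were listed in each genotype. A site in all 3 KO lists, whatever the WT lists held, was found for 46 of the 129 genes, against 6213 of all 10240. For all 3 WT lists, whatever the KO lists held, the numbers were 54 and 6274. Fewer of the family's genes were thus listed throughout a genotype, which also lowers its share in all 6 lists. A site in all 3 KO lists and no WT list was found for 25 genes (19.4%), against 14.9% of all genes. A site in all 3 WT lists and no KO list was found for 21 genes (16.3%), against 11.8% of all genes. Only 15 of the 129 (11.6%) had a site in all 6 lists, against 39% of all genes and 31.3% of the 166 ZNF genes of other chromosomes. The remaining 68 had a site in some lists of a genotype, of which 27 had one in both genotypes. Without KO replicate 1, 40 genes (31.2%) had a site in both other KO lists and no WT list, against 18.3% of all genes.

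The number of sites per gene moves with these shares. No list held more than 1 site for 87 of the 129 genes (67.4%), against 34.04% of all other genes. Within such genes, 2 of the 87 chromosome 19 ZNF genes (2.30%) had a site in all 6 lists, against 9.73% of the 3442 other genes. Within genes with at most 2 sites in a list and 2 in at least 1, the shares were 2 of 25 (8%) and 31.6% of 2517. Within genes with 3 or more sites in some list they were 11 of 17 (64.7%) and 68.5% of 4152. Genes listed in KO alone made up 23.0% of the 87 and 20.2% of the 3442, and genes listed in WT alone 18.4% and 19.2%.

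Among the 25 genes listed in KO alone, ZNF222 had the highest mean percentile of fold over the KO lists. It held 1 site in each KO list, with folds of 55.9, 56.9 and 50.2. In KO replicate 2 its site lay in the coding sequence at chr19:44531211-44531301, in the coordinates of the files. The position of its site in KO replicate 1 is unknown, since that row could not be joined to coordinates. ZNF549 held 2 sites per KO list, and its upper folds were 52.4, 44.7 and 61.96. In KO replicate 3 that site lay in the 3' UTR at chr19:58050657-58050919, and in KO replicate 2 the overlapping site was assigned to the stop codon. For the fold of 52.4 in KO replicate 1 the position is likewise unknown. Both genes had no site in any WT list.

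ZNF586 followed, with 2, 3 and 3 sites and highest folds of 27.97, 27.5 and 14.4 in KO replicates 1, 2 and 3. Its strongest site covered the start codon at chr19:58281124-58281246 in all 3 KO lists. ZNF565 held 1 coding site per KO list, with folds of 33.5, 16.1 and 17.8. ZNF414 held 1 site per KO list, with folds of 16.7, 14.8 and 29.2, and its highest lay at the start codon. ZNF45 held 2, 3 and 3 sites with highest folds of 12.5, 20.4 and 20.1, the strongest in the 5' UTR. All 4 genes had 0 sites in every WT list.

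Lower folds were listed for ZNF737, ZNF837, ZNF836 and ZNF816, the last of the 10 genes named in this class. ZNF737 had folds of 11.9, 10 and 15.97 at its stop codon, and ZNF837 of 10.8, 10.5 and 15.1 in the coding sequence. ZNF836 had folds of 8.48, 11.9 and 12.8 in the coding sequence. ZNF816 had folds of 7.69, 10.6 and 13.8 at the stop codon, in sites of only 2 to 4 bases. The readthrough gene that joins ZNF816 to its neighbour is listed as ZNF816-ZNF321P with a site in KO replicate 2 and in WT replicates 1 and 2, so the assignment of reads between them is uncertain.

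The other 15 genes listed in KO alone had folds between 3.04 and 14.7. Among them are ZNF91, which encodes a repressor of SVA retrotransposons, ZNF420, an inhibitor of p53-dependent apoptosis, and ZNF154, whose promoter is methylated in many cancers. These 3 were picked after their values were seen. ZNF91 held 1 site in each KO list, the strongest at the start codon with a fold of 11.3. ZNF420 and ZNF154 each held 1 site per KO list, with highest folds of 12.6 and 9.47, both in the 3' UTR.

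Among the 21 genes listed in WT alone, ZNF446, which encodes a repressor with KRAB and SCAN domains, led. It held 2 sites in each WT list, with highest folds of 67.6, 69.6 and 68.9 in WT replicates 1, 2 and 3. This site covered the stop codon at chr19:58991636-58991993 in WT replicate 2. ZNF536, which encodes a repressor of neuronal differentiation, held 1 coding site per WT list, at chr19:31039571-31039786 in WT replicate 1, with folds of 60.6, 49.6 and 58.0. ZNF497 held 1 site per WT list at its start codon, at chr19:58869319-58869527, with folds of 41.9, 53.4 and 41.3. None of these genes had a site in a KO list.

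ZNF776 had the most sites of this class. It held 4 sites in every WT list, 1 at the start codon, 2 in the coding sequence and 1 in the 3' UTR, and 0 in every KO list. Its highest folds were 13.5, 15.3 and 17.3, at the start codon. ZNF585A had 2 sites in every WT list. Its 3' UTR site had folds of 15.7, 12.4 and 22.7, the last of which its coding site equalled in WT replicate 3. ZNF304, whose protein recruits a silencing complex to tumour suppressor genes in colorectal cancer cells, held 1 site per WT list with folds of 16.6, 9.53 and 13.3.

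The other named genes of this class each held 1 site per WT list. ZNF579 had folds of 12.2, 11.4 and 12 and ZNF529 of 10.5, 8.44 and 9.94, both in the coding sequence. ZNF543 had folds of 17.1, 15.3 and 4.68. ZNF780A had folds of 15.5, 5.89 and 11.8. Its tandem copy ZNF780B had 2 sites in KO replicates 1 and 3 and none elsewhere, and reads of these copies may be split between them. The other 11 genes of this class had folds between 2.05 and 9.60.

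**Figure D2:**
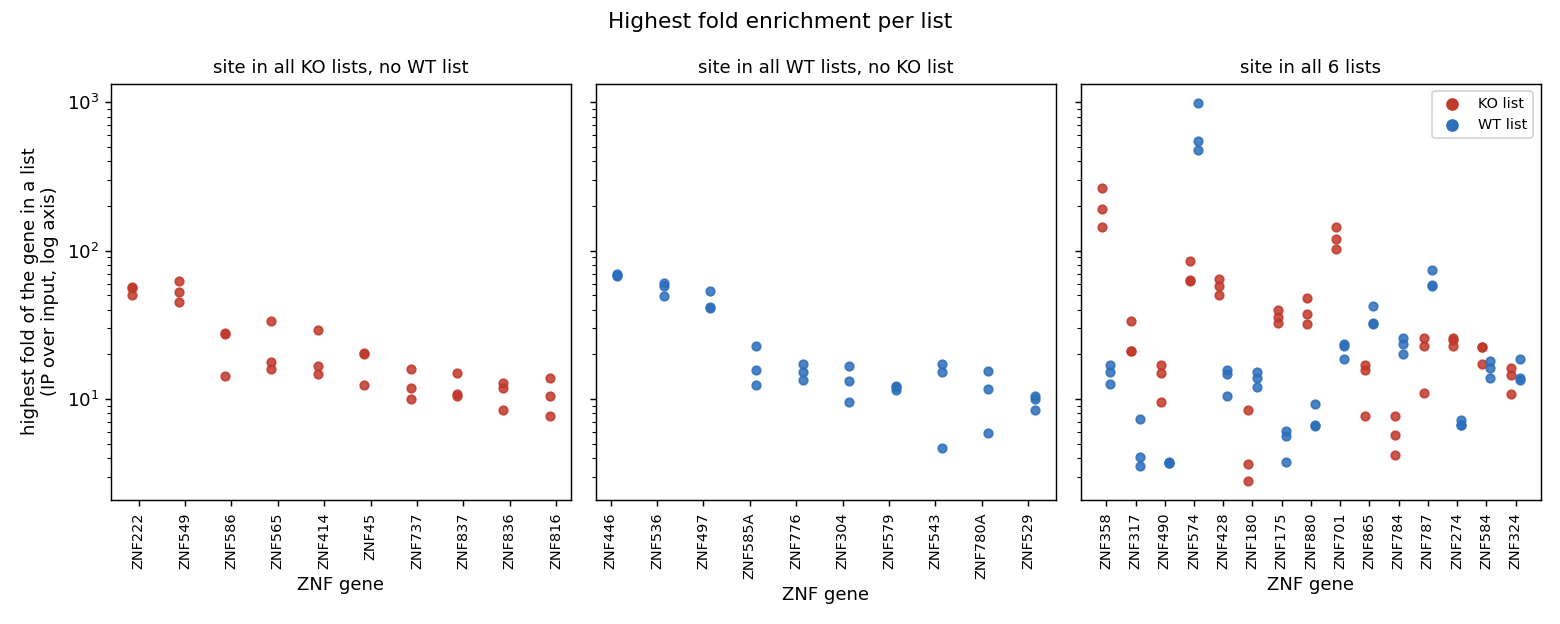
Highest fold enrichment of IP over input per gene and list (log axis), for the 10 named genes listed in KO alone, the 10 named genes listed in WT alone and the 15 genes with a site in all 6 lists; each point is 1 list, KO red and WT blue. In the right panel ZNF358 and ZNF701 have KO points at 103 or more and WT points at 23.6 or less, and ZNF574 has KO points at 85.6 or less and WT points at 480 or more.

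All 15 genes with a site in every list are described, of which ZNF701, ZNF428 and ZNF784 fell outside the naming rule and were added after their values were seen. In these 15 genes, the strongest site often lay elsewhere in the transcript in the other genotype. The region of the highest fold was shared by some KO and some WT list in 5 genes and by none in 10. The same count was not made over all genes, so it cannot be read as particular to this family. ZNF701 held 1, 2 and 1 sites in KO and 1 in each WT list. Its highest folds were 144, 119 and 103 in the KO lists, in the 3' UTR at chr19:53088402-53088707 in KO replicate 1, against 23.6, 22.9 and 18.7 in the WT lists, in the 5' UTR at chr19:53073917-53074139 in WT replicate 1. No KO list held the 5' UTR site and no WT list the 3' UTR site.

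ZNF274 encodes a KRAB protein that recruits the histone methyltransferase SETDB1 to the 3' ends of ZNF genes. It held 4 sites in every KO list and 2, 2 and 1 in the WT lists. Its highest folds were 25.99, 22.8 and 24.9 in the KO lists, over the stop codon at chr19:58724191-58724489, against 7.19, 6.70 and 6.73 in the WT lists, in the coding sequence at chr19:58718422-58718568. WT replicates 1 and 2 also held a site over the stop codon, with folds of 4.35 and 2.98. The number of sites in ZNF274 did not overlap between genotypes.

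ZNF787 had the most sites of all 129 genes and showed the opposite order. It held 2 sites in each KO list and 5 in each WT list. Its highest folds were 25.7, 22.7 and 10.9 in KO and 58.8, 73.7 and 58.1 in WT lists. Sites at its start codon and around its stop codon were present in all 6 lists. Sites that the files place in the 5' UTR at chr19:56632541-56632649 and in the 3' UTR at chr19:56613434-56613654 were present in the 3 WT lists alone.

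ZNF574 and ZNF428 had their strongest site over the stop codon in all 6 lists. ZNF574 held 2 sites in each KO list and 4, 4 and 2 in the WT lists, so its numbers overlap. Its highest folds were 85.6, 62.3 and 63.8 in KO and 547, 993 and 480 in WT lists, at overlapping positions such as chr19:42585192-42585649 in KO replicate 1 and chr19:42584800-42585679 in WT replicate 2. ZNF428 held 1 site in every list, with folds of 57.4, 64.7 and 49.9 in KO and 10.6, 14.8 and 15.7 in WT lists. Folds come from lists made separately, and their difference was not tested.

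ZNF358 held 2, 2 and 3 sites in KO and the same numbers in WT lists. Its highest folds were 144, 264 and 192 in KO lists, in the coding sequence, and 16.96, 15.2 and 12.6 in WT lists, in the 5' UTR. The region of its KO sites, which reaches over the stop codon, also held a site in each WT list, with folds of 10.6, 8.33 and 9.06. ZNF175 held 1 site in every list. Its KO site (folds 40.1, 35.9 and 32.8) and its WT site (folds 6.09, 5.63 and 3.75) lay at different positions in the coding sequence. ZNF880 held 2, 2 and 3 sites in KO and 1 in each WT list, with highest folds of 47.8, 37.6 and 31.9 against 6.54, 6.67 and 9.33 at overlapping start codon positions in KO replicates 1 and 2 and the 3 WT lists.

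ZNF317 held 2, 4 and 5 sites in KO and 3, 1 and 2 in WT lists, which overlap, with highest folds of 33.3, 21.2 and 21.0 against 7.40, 3.53 and 4.08. ZNF490 held 2, 3 and 3 sites in KO and 1 in each WT list, with highest folds of 9.57, 16.9 and 15.1 against 3.69, 3.74 and 3.80. ZNF865 held 1, 2 and 3 sites in KO and 3, 2 and 2 in WT lists, with highest folds of 7.71, 16.8 and 15.6 against 31.8, 32.4 and 42.7. ZNF317 and ZNF490 thus had their higher folds in KO lists, and ZNF865 in WT lists.

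ZNF180 held 1, 2 and 1 sites in KO and 3, 1 and 1 in WT lists, with highest folds of 2.82, 8.42 and 3.68 against 13.8, 15.2 and 12.1. ZNF784 held 2, 1 and 1 sites in KO and 1 in each WT list, with highest folds of 7.71, 4.21 and 5.73 against 23.6, 25.7 and 20. Both genes had their higher folds in WT lists. ZNF584 and ZNF324 had folds that overlap between genotypes: 22.5, 17.1 and 22.3 in KO against 18.1, 13.8 and 16.1 in WT lists for ZNF584, and 10.8, 16.1 and 14.6 against 13.5, 13.8 and 18.7 for ZNF324. Over the 15 genes the highest fold was higher in every KO than in every WT list for 8 and lower for 5, against 35.9% and 36.8% of the 3991 genes with a site in all 6 lists. At 8 and 5 of 15, these counts were not tested.

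Over all 129 genes, 29 (22.5%) had more sites in every KO than in every WT list, against 23.7% of all genes, and 26 (20.2%) had fewer, against 23.1% of all genes. Both shares lay near those of all genes. Without KO replicate 1 the first count was 47 (36.7%), against 31.6% of all genes. The 29 comprise the 25 genes listed in KO alone with ZNF274, ZNF490, ZNF880 and ZNF544. The 26 comprise the 21 listed in WT alone with ZNF787, ZNF426, ZNF551, ZNF559 and ZNF576. ZNF426 held 0, 1 and 1 sites in KO and 3 in each WT list, and ZNF544 held 2 in each KO list and 1, 0 and 0 in WT lists.

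Positions were then compared without regard to genes, by merging sites that overlapped by at least 1 base. Sites without coordinates, 3 of the family in KO replicate 1, could not be merged, among them sites of ZNF222 and ZNF549. The other sites of the 129 genes formed 222 regions. Of these, 45 (20.3%) held a site in all KO and no WT list, against 20% of all regions, and 51 (23.0%) in all WT and no KO list, against 21.8% of all regions. Only 9 regions (4.05%) held a site in all 6 lists, against 7.81% of all regions. These 9 lay in ZNF274, ZNF358, ZNF428, ZNF574, ZNF584, ZNF787 and ZNF880. A stop codon was covered by 5 of the 9.

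Agreement of 2 lists was measured by the Jaccard index, which divides the regions that both lists hold by those that either holds. For the chromosome 19 ZNF genes it averaged 0.0973 for pairs of 1 KO and 1 WT list (0.0759 to 0.112) and 0.654 for pairs of the same genotype (0.484 to 0.757). Over all genes the averages were 0.161 and 0.679. The pairs of KO replicate 1 with another KO list had indices of 0.504 and 0.484, the lowest within a genotype.

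Sites with the same start and end were nearly absent between genotypes in this family. Of the 9 pairs of a KO and a WT list, 1 shared a single identical site, the coding site of ZNF787 at chr19:56599795-56600461 in KO replicate 1 and WT replicate 3, and the others shared 0. As a share of the shorter list this was at most 1.47%, against 8.24% to 9.29% for all other genes. Within a genotype, pairs of lists shared 31 to 61 identical sites of the 129 genes, or 45.6% to 69.1% of the shorter list, against 60.8% to 73.0% for all other genes. The pairs share lists, so no test was made of them.

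**Figure D3:**
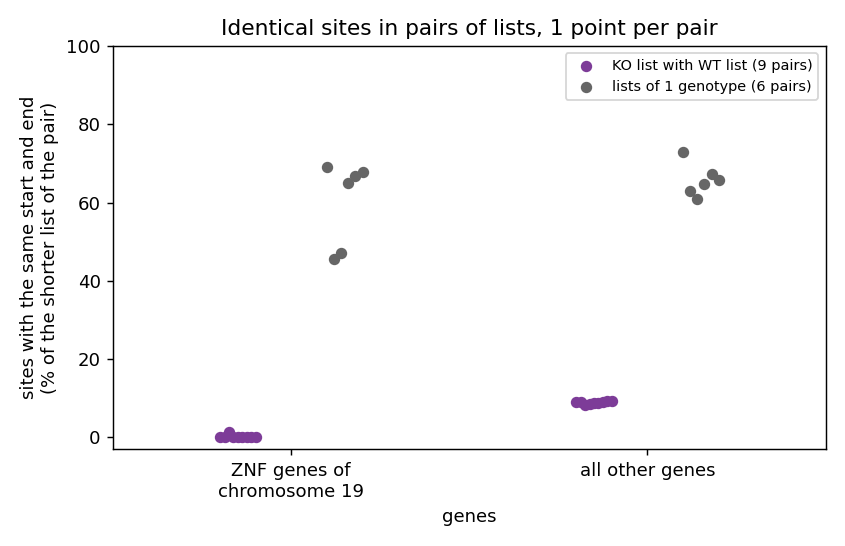
Share of sites with the same start and end in 2 lists, in percent of the shorter list, for pairs of a KO with a WT list (purple) and pairs of the same genotype (grey), 1 point per pair. For the chromosome 19 ZNF genes 8 of the 9 purple points lie at 0 and 1 at 1.47%, while for all other genes they lie between 8.24% and 9.29%.

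Sites of the chromosome 19 ZNF genes lay less often in the coding sequence, and more often at the stop codon and in the 3' UTR, than those of other genes in each of the 6 lists. Sites in the coding sequence made up 41.9% of theirs (35.9% to 47.1% over the 6 lists), against 56.4% of the sites of all other genes (55.5% to 57.1%). The difference within a list averaged -14.5 ± 4.52 percentage points (SD, n = 6 lists) and was negative in 6 of 6. Stop codon sites made up 22.6% (20.2% to 23.9%) against 13.5% (12.9% to 13.8%), a difference of 9.12 ± 1.49 points, positive in 6 of 6 lists. Sites in the 3' UTR made up 14.8% (12.5% to 17.9%) against 9.35% (8.70% to 10.3%), a difference of 5.40 ± 2.44 points, again in 6 of 6 lists.

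Each of these 3 differences had a two-sided exact sign-flip permutation p of 0.0312, the smallest that 6 lists allow, and an adjusted p of 0.05 over the 8 values compared in this way, which is at 0.05 and not under it. Lists of 1 genotype share most of their sites, so the 6 lists are not fully independent. The transcript lengths of these genes were not used here, and their part in these shares was not tested. The 5' UTR (difference 0.982 ± 2.23 points, positive in 4 of 6 lists, exact permutation p = 0.312) and the start codon (-1.004 ± 1.93 points, positive in 2 of 6 lists, exact permutation p = 0.219) gave no such order.

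The same held for the number and length of sites. Genes of the group with a site carried 1.39 sites on average, against 2.33 for all other genes, a difference of -0.931 ± 0.110 (SD, n = 6 lists), negative in 6 of 6 lists. Their median site was 231 bases long, against 168 bases for all other genes, a difference of 62.8 ± 8.68 bases, positive in 6 of 6 lists (exact permutation p = 0.0312 and adjusted p = 0.05 for both). The median fold of their sites stood at percentile 54.6 of a list, against 49.9 for all other genes, 4.69 ± 3.11 points higher (5 of 6 lists, exact permutation p = 0.0625, adjusted p = 0.0833).

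Set against the ZNF genes of other chromosomes, stop codon sites were again more frequent, at 22.6% against 14.9%, with a difference of 7.69 ± 2.29 points in 6 of 6 lists (SD, n = 6; exact permutation p = 0.0312, adjusted p = 0.05). Differences were -4.87 ± 4.03 points for coding sequence sites and -3.78 ± 1.04 points for 5' UTR sites, negative in 6 of 6 lists, with the same p. Sites in the 3' UTR were at 14.8% against 14.5% and their difference changed sign between lists (exact permutation p = 0.938). The family's fold percentile was lower than theirs, at 54.6 against 56.8, a difference of -2.23 ± 2.28 points, and so were its sites per gene, at 1.39 against 1.87, a difference of -0.474 ± 0.142. Both were negative in 6 of 6 lists (exact permutation p = 0.0312, adjusted p = 0.05). Median lengths were 231 and 226 bases (5 of 6 lists longer, exact permutation p = 0.0625), so both ZNF groups had longer sites than other genes.

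**Figure D4:**
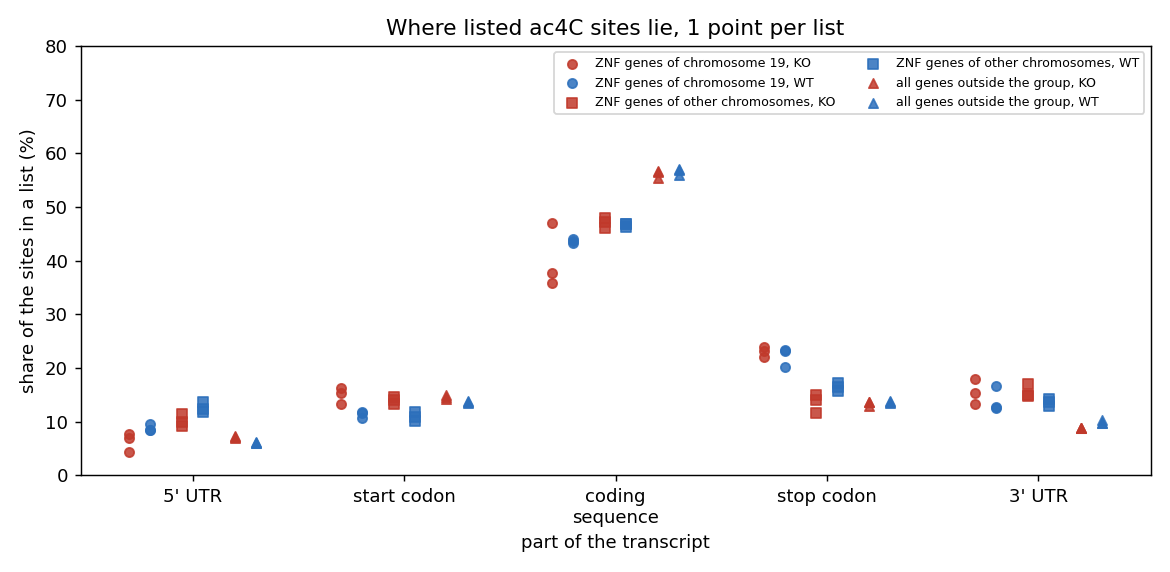
Share of listed sites in each part of the transcript, 1 point per list (KO red, WT blue), for the ZNF genes of chromosome 19 (circles), the ZNF genes of other chromosomes (squares) and all genes outside the group (triangles). The circles at the stop codon lie between 20.2% and 23.9%, above all squares and triangles there, and at the coding sequence they lie below all triangles.

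Between genotypes, the share of the family's sites in the 5' UTR was 4.41%, 7.69% and 6.84% in KO and 9.62%, 8.51% and 8.33% in WT lists. At the start codon it was 13.2%, 16.2% and 15.4% in KO and 11.5%, 11.7% and 10.7% in WT lists. In these 2 parts no KO value fell within the range of WT (exact permutation p = 0.1, adjusted p = 0.5 for each). The counts behind them are small, with 3, 9 and 8 sites in the 5' UTR in KO and 10, 8 and 7 in WT lists. The ZNF genes of other chromosomes had the same order, with 5' UTR shares of 10.1% ± 1.17 in KO and 12.6% ± 1.04 in WT lists (SD, n = 3 each; exact permutation p = 0.1) and start codon shares of 13.9% ± 0.662 and 10.9% ± 0.766 (exact permutation p = 0.1). In all genes outside the family the 5' UTR share was higher in KO, at 7.09% ± 0.163 against 6.08% ± 0.0927, and so was the start codon share, at 14.6% ± 0.369 against 13.7% ± 0.184 (SD, n = 3 each; exact permutation p = 0.1 for each). The family's difference from other genes in the 5' UTR was -0.772 points in KO and 2.74 points in WT lists, and the change of -3.51 points had an exact permutation p of 0.1 (adjusted p = 0.4).

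The coding sequence share was 47.1%, 37.6% and 35.9% in KO and 43.3%, 43.6% and 44.0% in WT lists, with KO replicate 1 above all WT lists and the other KO lists below them (exact permutation p = 0.4). The stop codon share was 23.0% ± 0.938 in KO and 22.2% ± 1.74 in WT (SD over 3 lists each; exact permutation p = 0.7). The 3' UTR share was 15.5% ± 2.36 in KO and 13.98% ± 2.33 in WT lists (exact permutation p = 0.5). The median length was 231, 236 and 223 bases in KO and 233.5, 232.5 and 230 bases in WT lists (exact permutation p = 0.8). Over all other genes the median was 173 ± 4.36 bases in KO and 163 ± 3.21 in WT lists, without overlap.

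Along chromosome 19 the 129 genes fell into 16 groups with more than 1 Mb between the sites of neighbours, of which 7 held a single gene. Among these 7 were ZNF77, ZNF333, ZNF91 and ZNF536. ZNF genes without a listed site were left out, so these groups are not the gene clusters of the chromosome. The largest group, from ZNF579 to ZNF446 near the end of the long arm (chr19:56090480-58991993), held 47 of the 129 genes. In it 21, 30 and 29 genes had a site in KO and 31, 28 and 24 in WT lists, with 10 genes listed in KO alone, 10 in WT alone and 6 in all 6 lists, where the shares over all genes were 14.9%, 11.8% and 39%. The next group, from ZNF175 to ZNF813 (chr19:52089880-53989986), held 20 genes, of which 6, 14 and 12 had a site in KO and 11, 10 and 7 in WT lists. Of these 20, 2 were listed in KO alone and 4 in WT alone, against the same 14.9% and 11.8% of all genes.

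The group from ZNF575 to ZNF180 (chr19:44037947-45001429), which holds ZNF45 and ZNF222, had 13 genes. Of these 6, 10 and 9 had a site in KO lists and 6 in each WT list, 3 were listed in KO alone and 1 in WT alone. At these sizes, counts per group of neighbours were not tested against those shares. The group from ZNF653 to ZNF490 (chr19:11594402-12694370) had 10 genes, of which 5, 7 and 8 had a site in KO and 5, 6 and 4 in WT lists. Genes listed in KO alone and in WT alone thus lay side by side in the largest groups, as with ZNF586 (KO) and ZNF776 (WT), both of the group at the end of the long arm.

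ZNF417 and ZNF473, outside the naming rule, were singled out after their values were seen. ZNF417 had the second highest fold of the family: WT replicates 1, 2 and 3 listed folds of 586, 768 and 828 in the 3' UTR at chr19:58418293-58418517 (WT replicate 3). KO replicates 1 and 2 listed a different 3' UTR site with folds of 7.39 and 6.41, and KO replicate 3 none. ZNF417 has close copies in ZNF587 and ZNF587B, so reads may be split between them. ZNF473, which encodes a part of the machinery that cuts histone messenger RNA, held 1 site in KO replicates 2 and 3 and in every WT list, with folds of 2.05 and 2.41 against 4.70, 3.02 and 4.62.

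Of 23 genes through which KRAB zinc finger proteins act, 21 had a site in some list, and MPHOSPH8 and SMARCAD1 had none. A site in all 6 lists was found for 14 of these 21, against 39% of all genes with a site in some list. Genes with more sites are more often in all 6 lists. Outside the family the share was 68.5% for genes with 3 or more sites in some list. More sites in every KO than in every WT list were found for 7 of the 21, against 23.7% of all genes with a site. Fewer were found for 5, against 23.1%. These counts were not tested. ATRX and CBX3 had sites in KO lists alone and MORC3 in WT lists alone. TRIM28, the corepressor itself, held 0, 1 and 0 sites in KO and 1 in each WT list. SETDB1 held 3, 2 and 2 sites in KO and 2, 4 and 1 in WT lists, and overlapped.

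Among the genes with more sites in KO were CBX1, a heterochromatin protein, with 3 in each KO and 1 in each WT list, and DNMT1, the maintenance DNA methyltransferase, with 11, 11 and 12 against 8, 9 and 7. ATRX, a remodeller that loads histones at heterochromatin, held 2, 2 and 1 sites in KO and none in WT lists. Among those with fewer were CBX5, with 2, 1 and 2 against 5 in each WT list, and the histone methyltransferase genes EHMT1, with 4, 6 and 7 against 10, 10 and 9, and EHMT2, with 2, 3 and 3 against 5, 6 and 6. With 3 lists against 3, none of these genes can pass a test alone.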

How the data were processed

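The authors deposited 1 list of ac4C sites per pair of IP and input, 1 per replicate; the deposited peak names are those of MACS, whose version the sources used here do not give. Named without a role, per the submitters' processing notes, are hg38, HISAT2 2.0.4 and cutadapt 1.9.3. Per the file headers each site has a score, 10 times the negative log10 of the p-value (at least 50 in these lists), a fold of IP over input (a ratio, at least 2) and a false discovery rate in percent. Only 1.20% of the family's sites lay within the GRCh38 span of their gene, so the deposited coordinates are not those of GRCh38 and are printed as the files give them, with starts 1 higher. Empty lines (17 over the 6 lists) were not analysed here.

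In KO replicate 1 the coordinate and gene columns stand in different row orders. They were rejoined on equal score and length, with ties settled by chromosome, which paired 13340 of 13818 rows and 68 of the family's 71. When the columns of the WT lists were shuffled as a test on simulated data, 99% to 99.3% of rows were joined, 100% of them rightly. Symbols follow RefSeq by GeneID.

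KO and WT lists were compared by two-sided exact permutation of the difference of means, and the family with other genes by exact sign flips over the 6 lists, each with Benjamini-Hochberg adjustment, in Python 3.11.15 with numpy 2.4.6 and pandas 2.3.3. Named genes were the 10 of highest fold percentile listed in KO alone and in WT alone, the 8 with most sites, and, of those in all 6 lists, the 5 with the largest and the 5 with the smallest difference in sites. ZNF701, ZNF428, ZNF784 and a few genes marked in the text were named beside these. Members and lists were chosen with earlier results of these data known. Sequences of the sites are not printed, since no genome of the files' build was used here.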

Additional observations from a re-analysis of the deposited data

How the results depend on the processing

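Of 248 recomputed values of 23 results, 228 did not turn direction and kept their side of 0.05, or stayed within 1.5 times for a count. Among these, the difference in sites per list (7.67) was 0 without KO replicate 2 or 3. The total of 228 is no measure of stability, since p between the genotypes cannot fall below 0.1. With 1 list left out, an exact sign-flip p cannot fall below 0.0625, so no comparison with other genes could pass 0.05. The family's differences from other genes then ranged from -15.7 to -13.3 points in the coding sequence and from 8.87 to 9.65 points at the stop codon. In the 3' UTR they ranged from 4.66 to 5.93 points. The labels number the replicates alike in both genotypes. Site numbers per gene in same-numbered lists did not deviate together (correlations of -0.0845, 0.00274 and -0.0779 over 10240 genes). These values cannot show whether same-numbered samples were handled as pairs, which is unknown. Taking same-numbered lists as pairs cannot change the difference of 6.67 genes with a site. Nor can it change the counts of 25 genes listed in KO alone and 21 in WT alone. Genes with fewer sites in KO in every same-numbered pair numbered 28, against 26 when every KO list was set against every WT list. Those with more sites numbered 29 in both ways. The exact sign-flip p for the difference in genes was 0.75, and 3 pairs cannot give a p below 0.25.

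The KO minus WT difference in the stop codon share (0.783 points) turned to -2.77 with a fold of at least 4, -2.05 with a score of at least 100 and -1.41 with lists trimmed to equal length, and ranged from -0.218 (without WT replicate 3) to 1.36 when 1 replicate was left out. That in median length (-2 bases) turned to 2.67, 0.167 and 4.33 with a fold of at least 4, a score of at least 100 and 8 other C2H2 genes of chromosome 19 added, and ranged from -5 to 1.5 (without KO replicate 3). With these genes added the 3' UTR share difference (1.55 points) was -0.246. The family's start codon share minus that of other genes turned to 0.0875 points with a fold of at least 4.

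With the 8 genes added, 6 differences from other genes had an adjusted p of 0.0417: -16.2 points in the coding sequence, 10.4 at the stop codon, 5.61 in the 3' UTR, -0.920 sites per gene, 6.97 fold percentiles and 67.8 bases. Each had an exact sign-flip p of 0.0312, the smallest that 6 lists allow. Only that of the fold percentile had changed, from 0.0625. The adjusted p of the others fell from 0.05 through this change alone, so it is no added support for them. With a false discovery rate of at most 50%, 14 of the family's 54 genes with such a site (25.9%) were listed in KO alone, against 40.7% of all genes, and 2 (3.70%) in WT alone, against 3.62% of all genes. With every listed site, leaving out 1 replicate can only keep or raise such counts. Genes listed in KO alone then ranged from 25 to 40 and those in WT alone from 21 to 26. Genes with more sites in every KO list ranged from 29 to 47. The values of 40 and 47 were without KO replicate 1. The cause was not tested. Depth is unknown, so a site missing from a list may lie under its threshold.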

Other observations

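Zinc finger genes of chromosome 19 outside the naming rule also had sites. ZNF875, listed as HKR1, held 1 site in each KO list (folds 3.97, 4.03 and 3.68) and 3 in each WT list (highest folds 14.4, 17.2 and 9.33). ZSCAN18, a SCAN domain gene, held 1 site in each KO list, with folds of 61.7, 61.8 and 58.8, and none in WT lists. ZFP14, ZSCAN5B and MZF1, a myeloid zinc finger gene, likewise had sites in all KO lists and no WT list. ZBTB32 had 1 site in each WT list (folds 20.1, 17.2 and 14.7) and none in KO lists. ZBTB7A, which encodes a repressor of fetal globin genes, held 2, 2 and 3 sites in KO and 4, 3 and 4 in WT lists, which overlap, with highest folds of 50.6, 46.9 and 59.9 against 26.7, 21.1 and 18.5.

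In KO replicates 2 and 3, 29 of the 129 genes had a site that KO replicate 1 lacked. Of these, 15 had no WT site and 12 had a site in all 3 WT lists. The same counts were not made over all genes, so they cannot be read as particular to this family. KO replicate 1 had the fewest sites of all lists, and its part in these numbers was not tested.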
